A study of Homo sapiens with 22 samples.

Results

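A small part of the transposon insertions in K562 cells, a human chronic myeloid leukemia line, lay in one-sided stretches far from protein-coding genes. In these stretches most insertions were recorded in the same orientation. The bins described here were 10 kb bins of chromosomes 1 to 22 that lay more than 10 kb from any protein-coding gene body, held at least 200 lines in the 20 libraries with an assigned helper, and had 70% or more of those lines in 1 orientation. A line is 1 insertion record, that is 1 position, orientation and donor barcode in 1 library. Of 287509 bins, 136420 passed the distance, 16852 of these also had the lines, and 2339 (13.9% of the 16852) had the bias. They held 1165519 lines, 2.30% of all lines on those chromosomes. The bins were selected on their orientation share, so that share is given as a description, and the remaining 14513 intergenic bins with enough lines served for comparison.

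Calling Cards records where a transposase has been by leaving a transposon behind. The piggyBac transposase inserts at the sequence TTAA. Each inserted transposon reports its own place as RNA, because transcription that starts inside it is not stopped at its end but passes into the flanking DNA, and this RNA is captured with an oligo(dT) primer. An insertion is therefore seen only if its transcript is made, polyadenylated or otherwise primed, and mapped. Long non-coding RNA (lncRNA) genes are transcribed units without a known protein product, many of which lie between protein-coding genes.

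All cells received a donor plasmid with the barcoded transposon and a helper plasmid, each at 5 µg, by electroporation and were kept under puromycin for 11 days, and 3 transfections were plated into each dish. In 10 libraries the helper was hyPBase, a hyperactive piggyBac transposase, and in the other 10 it was hyPBase-centrip. Another 2 libraries, whose labels name different helpers in different fields, entered no comparison. The libraries held 1509672 to 3596762 lines, with 49.8% to 49.9% of them in plus orientation in each library, and every line on chromosomes 1 to 22 lay on a TTAA of the hg38 reference. CDKN2A, which is deleted in K562 cells, held 1 line over its 220 TTAA sites against 2.82 lines per TTAA across these chromosomes. How plus and minus relate to the direction of the transposon's transcript is not given in the sources used here, so both are used as recorded.

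Among the biased bins, 1181 were dominated by plus and 1158 by minus lines. The dominant share had a median of 75.7% and reached 80% to 90% in 534 bins and 90% or more in 159, of which 3 had every line in the dominant orientation. Lines per bin had a median of 338 and a maximum of 8175. Biased and other intergenic bins had similar medians for lines (338 and 330) and TTAA sites (63 and 69). At the threshold, chr3:71970001-71980000, chr5:36380001-36390000 and chr5:75730001-75740000 were just inside, each with 70% minus lines. Just outside, chr4:67770001-67780000, chr6:156410001-156420000 and chr3:178110001-178120000 each had 69.97% plus lines, so the threshold cut through a continuous range. Biased bins were found on all 22 chromosomes, from 10.3% of the intergenic bins with enough lines on chromosome 13 to 24.3% on chromosome 19.

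**Figure D1:**
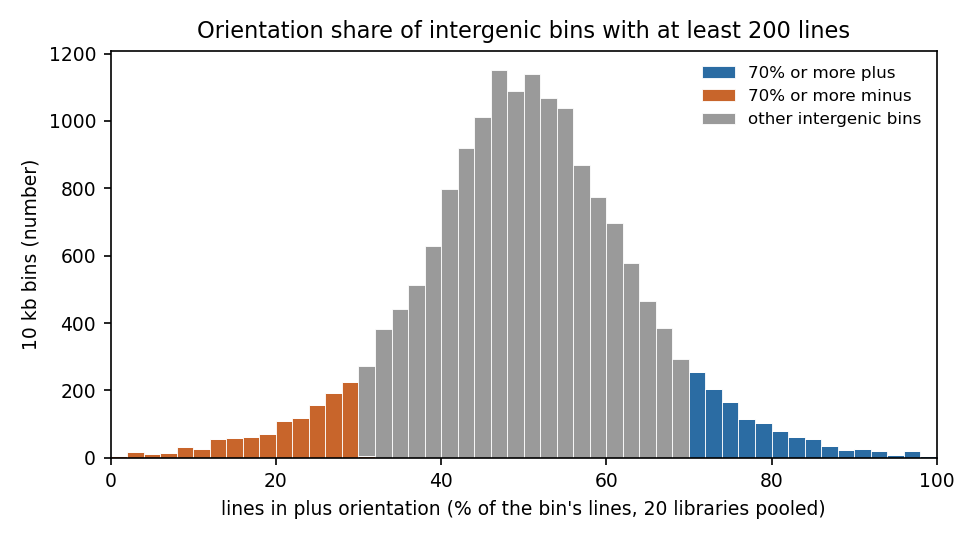
Number of 10 kb intergenic bins with at least 200 lines (y axis) by the percentage of their lines in plus orientation (x axis, 20 libraries pooled, steps of 2 percentage points). The selected bins, 1181 plus and 1158 minus, form the tails of a single symmetrical distribution rather than a separate group.

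The reference sequence around the most hit TTAA of 4 of the longest stretches, and of the fullest of the 3 bins with all lines in 1 orientation, shows what a recorded insertion site looks like. Each line gives the plus strand of hg38 from 5′ to 3′, with 40 bases on both sides of the TTAA, which is in capitals.
chr4:10355318-10355401: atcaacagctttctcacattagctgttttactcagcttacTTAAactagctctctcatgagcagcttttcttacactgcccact
chr20:30720593-30720676: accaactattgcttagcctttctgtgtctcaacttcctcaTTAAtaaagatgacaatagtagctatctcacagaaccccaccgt
chr9:97261135-97261218: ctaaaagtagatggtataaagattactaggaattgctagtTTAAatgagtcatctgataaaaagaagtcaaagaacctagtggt
chr10:61780782-61780865: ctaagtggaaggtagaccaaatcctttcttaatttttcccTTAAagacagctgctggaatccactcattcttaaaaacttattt
chr6:109240319-109240402: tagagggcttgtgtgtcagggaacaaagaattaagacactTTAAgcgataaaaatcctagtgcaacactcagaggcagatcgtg
The chromosome 4 site held 66 lines, all minus. The chromosome 20 site held 257 lines, all plus. The chromosome 6 site held 81 lines, all minus. The chromosome 9 site held 60 plus and 117 minus lines, and the chromosome 10 site 286 plus and 171 minus lines. The target itself reads the same on both strands, so at these sites its letters were equal for both orientations while the records were not.

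The lines of a biased bin were spread over many sites. A biased bin had lines at a median of 44 different TTAA sites, 72.7% of the TTAA sites in it, and its most hit site held a median of 16.4% of its lines. After that site was left out, 1860 of the 2339 bins still had 70% or more and 2325 more than 50% of their lines in the dominant orientation. The exceptions were few, with 93 bins in which 1 site held 50% or more of the lines and 15 with fewer than 10 sites hit. Of 12638 sites with at least 20 lines in the biased bins, 89.5% leaned the way of their bin and 38.1% had 90% or more of their lines that way, against 65.1% and 7.38% of 81308 sites in the other bins. The choice of bins used these same lines, so this difference is a description of the choice. A weaker lean was left when every position and orientation was counted once over the 20 libraries. The dominant share of such distinct positions had a median of 60.8%, was above 50% in 2202 bins and reached 70% in 285 (12.2%).

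The 3 bins with no line in the minor orientation differed in how many sites they rested on. The bin chr6:109240001-109250000, with no annotated lncRNA and between CEP57L1 and the sialomucin gene CD164, had 380 minus lines at 35 sites. The bin chr17:31010001-31020000, in the lncRNA gene ENSG00000291063 on the plus strand and between RNF135, a ubiquitin ligase gene, and NF1, the neurofibromatosis tumor suppressor, had 250 minus lines at 46 sites. All 273 plus lines of chr7:20001-30000, near the end of the chromosome, lay at 1 of its 52 TTAA sites, so its share is that of a single position.

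Runs of biased bins were short. Of 2122 runs of neighbouring bins with the same dominant orientation, 1935 were single bins, 163 had 2 bins, 20 had 3, 3 had 4 and 1 had 6. Allowing 1 other bin inside a run left 2020. Where 2 biased bins touched, 217 of 270 pairs (80.4%) shared their orientation, 27 switched from plus to minus along the chromosome and 26 from minus to plus. A biased bin shared its majority with 58.7% of 2006 touching intergenic bins that were not biased, and 53.7% of 7166 touching pairs of unbiased bins shared theirs.

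The longest run was chr4:10320001-10380000, 6 bins with no annotated lncRNA. This run lay 203028 bp from WDR1, which encodes an actin-disassembly factor, and 59879 bp from ZNF518B, a zinc finger gene. Its 1705 lines were 80.9% minus, from 72.2% to 96.0% in its bins. The minus share over the run was lowest at 72.4%, had a median of 78.6% and was highest at 86.1% in the hyPBase libraries. It was lowest at 78.8%, had a median of 81.8% and was highest at 92.1% in the hyPBase-centrip libraries, so every library lay on the minus side and the groups overlapped. The run ended at a switch, since the next bin, chr4:10380001-10390000, had 84.6% plus lines. On the other side the adjoining bin had 52.1% minus of 96 lines and the next 69.1% minus of 269 lines. Farther out on that side, chr4:10230001-10260000 and chr4:10180001-10210000 were runs of 3 bins with 75.4% and 75.8% minus lines.

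The lncRNA gene PVT1, which lies beside the transcription factor gene MYC, held the run chr8:127870001-127910000. Its 3476 lines in 4 bins were 91.5% minus, opposite to PVT1 on the plus strand. The minus share ran from 89.1% through a median of 91.4% to 94.5% in the hyPBase libraries and from 89.6% through 91.4% to 94.7% with hyPBase-centrip. This was the most biased of the 5 runs, and the helpers overlapped over most of their range. The bins just beyond the run leaned the same way, with 85.7% minus of 175 lines before it and 66.2% minus of 1586 lines after it.

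Another run, chr20:30690001-30730000, lay in ENSG00000290900, a lncRNA gene on the minus strand, and had 82.6% plus lines of 2804. Its plus share was 81.0% to 86.5% in the hyPBase libraries (median 82.4%) and 75.3% to 88.6% with hyPBase-centrip (median 81.8%). The run chr9:97230001-97270000, between the cathepsin gene CTSV and CCDC180, had 75.9% minus lines of 2627 and overlapped lncRNA genes of both strands. Its minus share was 69.2% to 84.4% (median 76.7%) with hyPBase and 72.5% to 80.8% (median 74.0%) with hyPBase-centrip. The last of the 5, chr10:61780001-61810000, was taken from the 20 runs of 3 bins as the one with the most lines, 9301. It lay in LINC02625 on the minus strand and 91683 bp from ARID5B, a DNA-binding protein gene. It had 73.8% plus lines, with 72.0% to 78.3% (median 74.4%) in the hyPBase and 70.9% to 75.3% (median 73.2%) in the hyPBase-centrip libraries. In each of these 3 runs the ranges of the helpers overlapped. The left neighbours of the LINC02625 run, which lie within 10 kb of a protein-coding gene, had 68.8% minus and then 60.8% plus lines.

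Of the 20 runs of 3 bins, 3 more were singled out after their values were seen. The run chr15:82380001-82410000 had 95.4% minus lines of 1901, opposite to UBE2Q2P2 on the plus strand, with 89.0% to 100% in the hyPBase and 92.5% to 98.4% in the hyPBase-centrip libraries. It lies between GOLGA6L10 and GOLGA6L9, members of a family with near-identical copies, and how the mapping divided reads among such copies was not tested. The run chr7:32640001-32670000, with no annotated lncRNA, had 91.1% plus lines of 2473, with 87.6% to 97.5% in the hyPBase and 83.9% to 93.8% in the hyPBase-centrip libraries. The run chr1:207820001-207850000, 30971 bp from CD34, a hematopoietic progenitor marker gene, had 87.4% plus lines of 1395. It overlapped MIR29B2CHG on the minus strand and ENSG00000289071 on the plus strand.

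**Figure D2:**
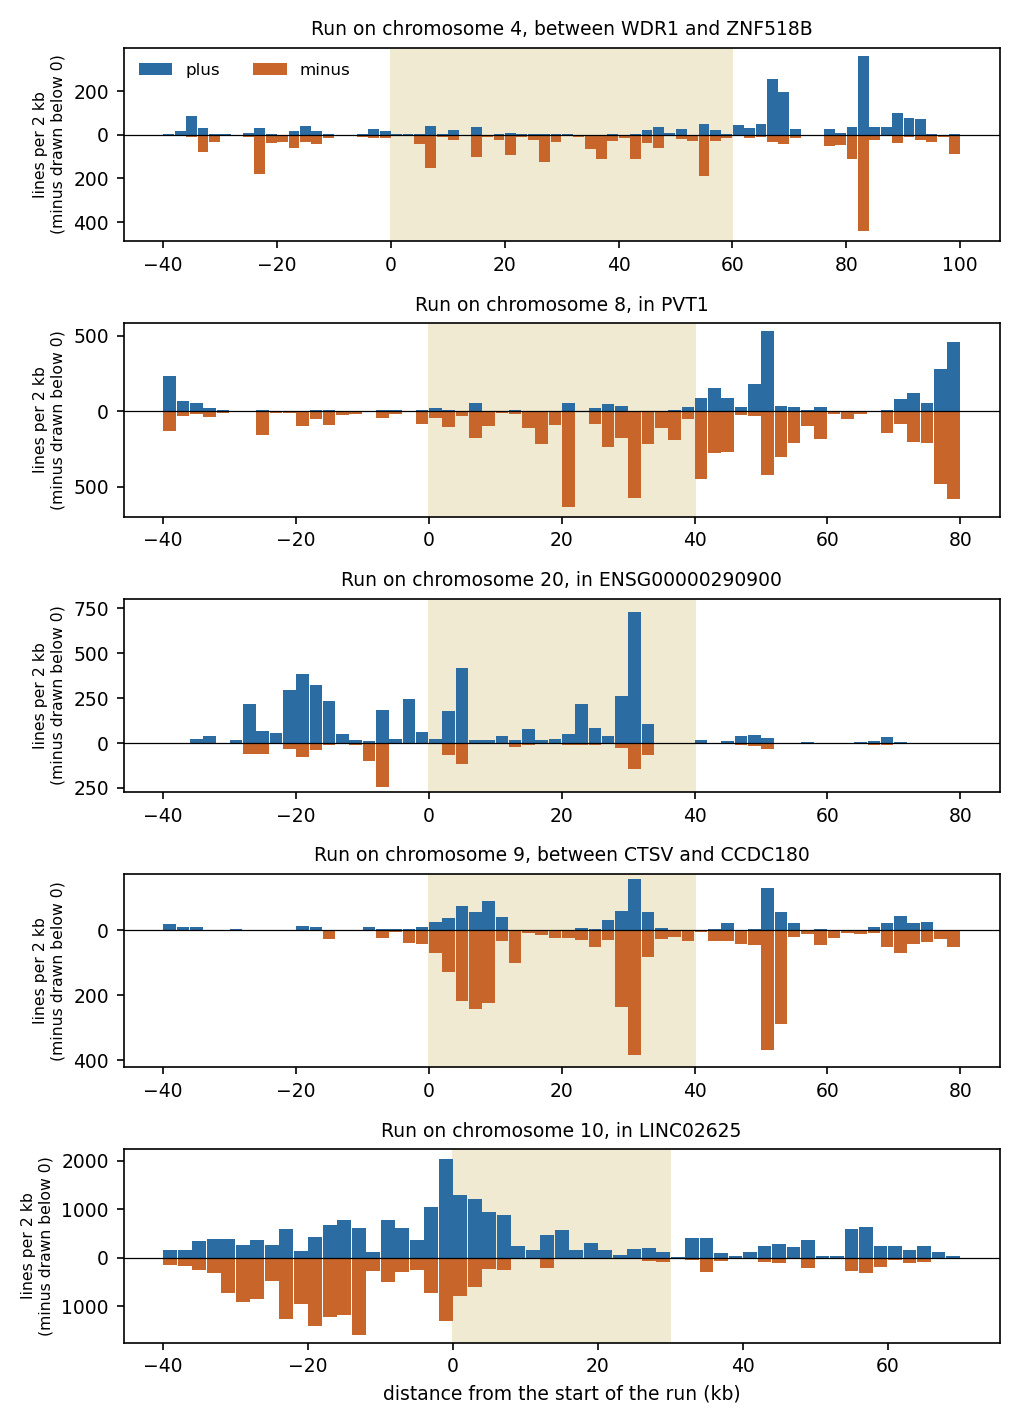
Lines per 2 kb in plus (above 0) and minus (drawn below 0) orientation, summed over 20 libraries, for the 5 longest runs (shaded) and 40 kb on both sides. The x axis is the distance from the start of the run in kb. In the chromosome 4 run a minus stretch ends at a plus cluster, and in PVT1 the shaded bins hold 294 plus against 3182 minus lines.

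The 5 bins with the most lines had dominant shares of 70.2% to 82.0%. The first, chr3:152190001-152200000, in ENSG00000289315 on the minus strand and 43827 bp from the splicing regulator gene MBNL1, had 73.0% plus lines of 8175 at 98 of its 99 TTAA sites. Its plus share was 69.4% to 78.1% in the hyPBase and 70.7% to 77.2% in the hyPBase-centrip libraries. The bin chr7:130940001-130950000 in LINC-PINT, on the minus strand, had 82.0% plus lines of 5055. The bins chr8:129690001-129700000, in ENSG00000285108 on the minus strand, and chr8:128040001-128050000, in PVT1, had 78.9% plus lines of 6984 and 71.3% minus lines of 4839. The last of these 5, chr10:61780001-61790000, was the first bin of the LINC02625 run, with 70.2% plus lines of 6464. In all 5 bins more than 50% of the lines of each of the 20 libraries were in the dominant orientation, and in all 5 that orientation was opposite to the lncRNA gene.

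Biased bins were opposite in orientation to the lncRNA genes they lay in more often than the others were. Of the 2339 bins, 480 overlapped lncRNA genes of the plus strand only, 440 of the minus strand only, 140 of both and 1279 of neither. In 649 of the 920 bins with lncRNA genes of a single strand (70.5%), the dominant orientation was opposite to the gene, 339 times with a plus gene and 310 times with a minus gene. In the other intergenic bins the majority was opposite in 3074 of 5423 (56.7%), with ties left out. The share rose with each class of dominant share, from 54.4% of bins at 50% to 60%, through 61.4%, 67.2% and 75%, to 85.0% of bins at 90% or more. The strand of a gene took no part in the choice of bins, but several bins can lie in the same gene and are not independent, and no test was made over them. An overlap with lncRNA genes as such was only slightly more frequent, at 45.3% of biased and 42.2% of other bins. No annotated gene of any kind overlapped 1062 biased bins (45.4%), against 51.2% of the others.

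**Figure D3:**
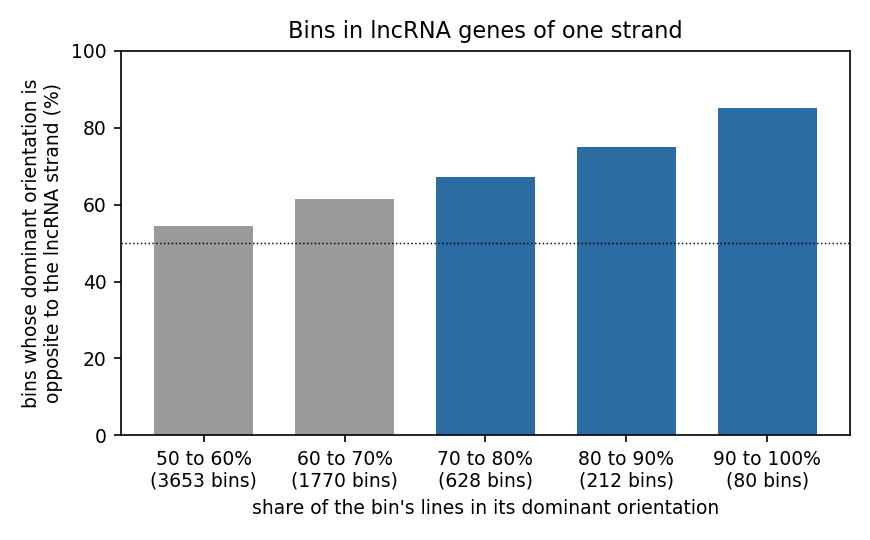
Percentage of bins whose dominant orientation is opposite to the strand of the lncRNA gene they lie in (y axis), by the percentage of lines in the dominant orientation (x axis), for intergenic bins in lncRNA genes of a single strand. The 3 blue classes are the selected bins and the dotted line marks 50%. The share rises from 54.4% to 85.0%.

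The same measure was taken in the 5455 intergenic bins in lncRNA genes of a single strand that were not biased. These are the bins left after those with 70% or more in 1 orientation were taken out, which limits the lean they can show. There, 48.3% ± 0.137 (SD, n = 10) of the lines of a hyPBase library and 48.8% ± 0.147 (SD, n = 10) of a hyPBase-centrip library had the orientation of the gene. The hyPBase libraries ran from 48.1% to 48.5% and the hyPBase-centrip libraries from 48.6% to 49.1%, so all 20 lay below 50% and the groups did not overlap. Each group differed from 50% by an exact sign-flip test (two-sided p = 0.00195, the smallest that 10 libraries allow). All libraries read the same bins, so this p concerns the spread between libraries, and an imbalance of these bins unrelated to the gene strand would give it too. The helpers differed by 0.48 percentage points by a permutation test with 100000 resamples (two-sided p = 2e-05, the smallest it can give).

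By gene, the lean was uneven. The 5 lncRNA genes with the most biased bins were PVT1, MIR3681HG, LINC-PINT, ENSG00000263745 and STXBP5-AS1. Their biased bins were 13 of 36, 11 of 70, 10 of 24, 10 of 44 and 8 of 36 intergenic bins with enough lines, in this order. Over all such bins the share was 13.9%. The ranking is by number, so it favors genes that hold many such bins, and the share in MIR3681HG was close to that of all bins. All 13 biased bins of PVT1 were minus, opposite to the gene, and over the whole gene 36.4% of 39093 lines had its orientation. That share was 34.5% to 37.3% in the hyPBase libraries (median 35.5%) and 35.5% to 39.1% with hyPBase-centrip (median 37.1%). All 10 biased bins of LINC-PINT, a transcript known as a target of p53, were plus and again opposite to the gene. Of its 24012 lines 33.3% had its orientation, with 30.7% to 35.8% in the hyPBase libraries and 32.2% to 34.8% with hyPBase-centrip. These shares include the lines of the biased bins, which the choice made one-sided and which were all opposite to these genes. Outside the biased bins, 43.8% of 27108 lines in PVT1 and 42.8% of 14633 lines in LINC-PINT had the orientation of the gene, with 41.5% to 47.4% and 39.2% to 49.2% in single libraries.

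STXBP5-AS1, on the minus strand, had 8 biased bins, all plus, but over the gene the share was close to balance, with 48.0% of 89056 lines in its orientation and 49.7% outside the biased bins. ENSG00000263745, on the minus strand of chromosome 18, had 9 plus bins and 1 minus bin, and 41.5% of its lines had its orientation, and 44.1% outside the biased bins. MIR3681HG, a microRNA host gene on the plus strand, was the exception among these 5 genes, and genes with fewer biased bins are not described here. Its 11 biased bins were 6 plus and 5 minus, and 50.3% of its 50274 lines had its orientation, with 10 of 20 libraries below 50%. Outside the biased bins all 20 libraries lay below 50% in PVT1, LINC-PINT and ENSG00000263745, and 13 of 20 did in MIR3681HG and in STXBP5-AS1.

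The side of the nearest protein-coding gene on which a bin lay also went with its orientation. Of 923 biased bins downstream of that gene 58.0% were opposite to it, and of 1416 upstream 43.6% were. In the other intergenic bins these shares were 52.7% and 49.0%. Among biased bins with no lncRNA the shares were 57.6% of 502 and 45.6% of 777. The difference thus had the same sign with and without lncRNA genes.

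The biased bins held more runs of A in their dominant orientation. Runs of at least 10 A on the plus strand were counted for plus and runs of at least 10 T on that strand for minus. A biased bin had on average 2.41 such runs in its dominant and 1.51 in its minor orientation, against 1.97 and 1.65 in the other bins. More runs lay in the dominant orientation in 1308 biased bins, fewer in 588 and equally many in 443. The other bins leaned the same way less strongly, with 6509, 4857 and 3147. Of bins with unequal numbers, 69.0% of biased and 57.3% of other bins had more in the dominant orientation. From sites with at least 20 lines, taking plus to read to the right, the next such run was a median of 3357.5 bp away in the dominant and 5517.5 bp in the minor orientation, and 3845 and 4717 bp in the other bins. It was nearer in the dominant orientation for 62.2% of sites in biased and 55.0% in other bins. A biased site leaned the way of its bin nearly as often when the nearer run lay in the minor (88.3%) as in the dominant orientation (90.2%). The bins were chosen on these same lines, so most of their sites lean that way wherever the run lies, and the comparison cannot decide. In the other bins the values were 63.7% and 66.1%. The part of these runs in the bias was not tested.

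The nearest such runs in the dominant orientation from the 3 sites above whose lines were all in 1 orientation are shown to make this concrete, on the plus strand of hg38 with the run in capitals and 20 bases on both sides.
chr4:10351648-10351700: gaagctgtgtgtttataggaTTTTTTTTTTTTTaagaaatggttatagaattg
chr20:30723197-30723258: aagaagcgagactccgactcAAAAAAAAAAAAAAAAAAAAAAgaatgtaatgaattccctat
chr6:109239801-109239852: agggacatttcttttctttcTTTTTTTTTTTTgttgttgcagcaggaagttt
The chromosome 4 run of 13 T was 3677 bp from its site, against 12274 bp on the other side. The chromosome 6 run of 12 T was 526 bp away, against 20776 bp. The chromosome 20 run of 22 A was 2580 bp away and so farther than the one in the minor orientation, at 1922 bp. The nearer run thus lay on the dominant side for 2 of these 3 sites. Of the sites shown above with lines in both orientations, the chromosome 9 site had 2521 bp on the dominant and 3167 bp on the minor side. The chromosome 10 site went the other way, with 12819 bp on the dominant and 1244 bp on the minor side.

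The libraries matched one another closely. When the bins were chosen on 19 libraries and read in the one left out, 76.6% to 78.5% of its lines were in the dominant orientation in the hyPBase libraries (77.5% ± 0.622, SD, n = 10). With hyPBase-centrip it was 76.2% to 78.1% (77.2% ± 0.653, SD, n = 10). The groups overlapped over most of their range. The choosing libraries themselves had 77.6% to 77.7%, so little was lost in a library that took no part. The highest value in each group came from a shallow library, hyPBase replicate 8 with 39931 and hyPBase-centrip replicate 3 with 38189 lines in the chosen bins, and the lowest of all from the deepest, hyPBase-centrip replicate 9 with 75184. Of bins with at least 10 lines in the left-out library, 97.1% to 98.6% kept their majority.

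**Figure D4:**
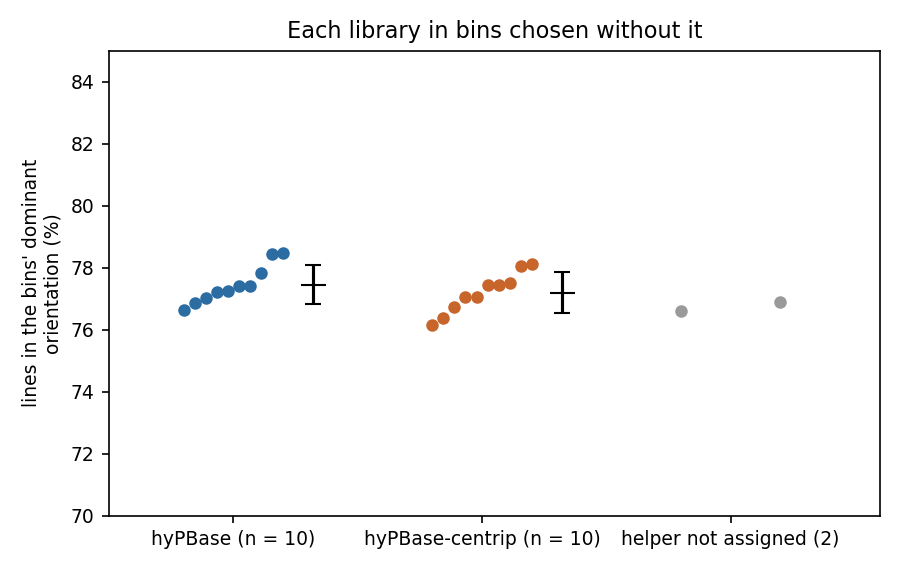
Percentage of a library's lines in the dominant orientation of bins chosen on the other libraries (y axis, starting at 70%), with 1 point per library and the mean with its SD (black) for the 10 hyPBase and 10 hyPBase-centrip libraries. The 2 libraries with no assigned helper were read in the bins chosen on all 20, and all points lie between 76.2% and 78.5%.

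Bin by bin, 1565 of the 2339 (66.9%) had more than 50% of the lines in the dominant orientation in all 20 libraries, and no bin had fewer than 16 such libraries. A library had a median of 17 lines in a biased bin, so some of the exceptions are of few lines. Of 372 bins with at least 20 lines in every library, 371 had the majority in all 20. The bins were chosen on the pooled lines of these same libraries, so such majorities are in large part built in. Only the bins chosen without a library are free of this. The spread of a bin's share between libraries was that of counting, with a chi-square per degree of freedom of 0.963 in the median and above 2 in 11 bins.

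Reads per line were also higher in the dominant orientation of the biased bins. The choice did not use the reads, but a line exists only where reads were found, so lines and reads per line may not be independent. No such ratio is given here for the other intergenic bins, so it cannot be called particular to the biased ones. A line of the dominant orientation had 3.38 to 6.21 reads and a minor line 2.73 to 4.76 in the hyPBase libraries, and 2.50 to 4.69 and 2.03 to 3.47 with hyPBase-centrip. The ratio of dominant to minor reads per line was 1.16 to 1.30 for hyPBase (1.25 ± 0.0401, SD, n = 10) and 1.18 to 1.35 for hyPBase-centrip (1.26 ± 0.0453, SD, n = 10). It was above 1 in 20 of 20 libraries.

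Bins chosen with either helper were biased with the other. With the minimum set to 100 lines, 2242 bins were chosen on the hyPBase libraries alone. In the hyPBase-centrip libraries 75.6% of them reached 70% in the same orientation and 99.9% had more than 50%. In reverse, 75.8% of 2725 bins chosen on hyPBase-centrip reached 70% with hyPBase. Among the 2339 bins, the dominant share with hyPBase-centrip was lower than with hyPBase in 1185 and higher in 1149. The median difference was -0.081 percentage points, with 5% of bins below -8.15 and 5% above 8.24.

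**Figure D5:**
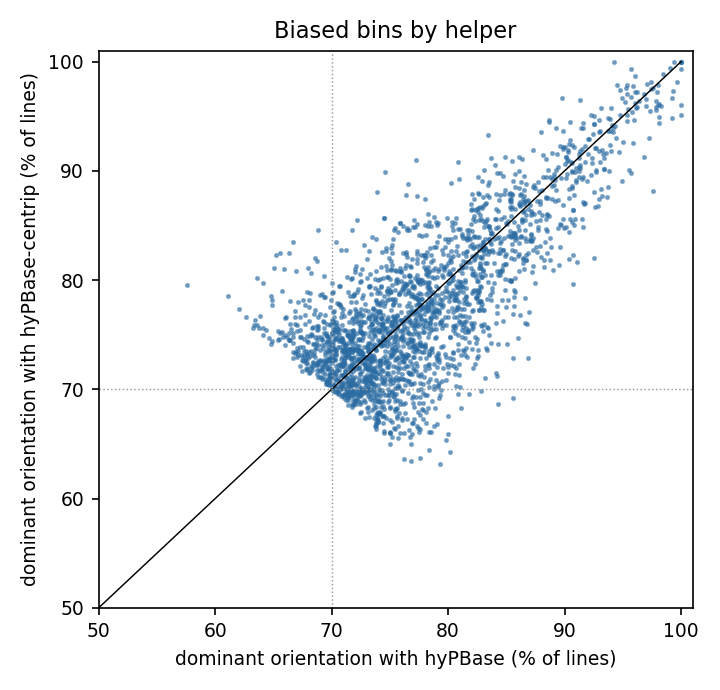
Percentage of lines in the dominant orientation with hyPBase (x axis) and hyPBase-centrip (y axis), 10 libraries each, with 1 point per biased bin. The black line marks equality and the dotted lines 70%. The points lie on both sides of the line, 1185 below and 1149 above, and no bin is under 50% with either helper. The bins were chosen on the lines of both helpers together, which favors a majority with each.

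A test of orientation by helper was run over the 16852 intergenic bins with edgeR's quasi-likelihood test, with a term for each library. It called 17 bins, 0.101% of those tested, at a Benjamini-Hochberg adjusted p below 0.05, and 1 of the 2339 biased bins. That bin, chr12:127150001-127160000, overlaps lncRNA genes of both strands. Its plus share was 75.2% to 86.9% in the hyPBase libraries (median 81.1%) and 67.6% to 80.3% with hyPBase-centrip (median 73.8%), so the groups overlapped. The log2 odds of the dominant orientation were lower by 0.56 with hyPBase-centrip (log2 difference -0.56 ± 0.12, SE, edgeR adjusted p = 0.0415). The call was lost without hyPBase-centrip replicate 3 (smallest edgeR adjusted p among biased bins 0.0887), with the replicate block (0.0535), at a minimum of 100 lines (0.0899) and with DESeq2 (0.0941), and also with barcodes collapsed. Other biased bins with small p-values did not pass. The dominant share was lower with hyPBase-centrip in STXBP5-AS1 (chr6:147000001-147010000, edgeR adjusted p = 0.0966), DLEU1 (chr13:50410001-50420000, 0.136) and CASC15 (chr6:21990001-22000000, 0.141). It was higher with hyPBase-centrip at chr2:126620001-126630000 (57.5% of 106 hyPBase and 79.6% of 142 hyPBase-centrip lines, edgeR adjusted p = 0.105). The same held at chr6:156680001-156690000 (69.1% and 78.7%, edgeR adjusted p = 0.126).

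The number of lines per bin was compared between helpers over 63922 bins, genic ones included. The edgeR test called 730 bins, 1.14% of those tested, and 30 biased bins (1.28%). Of these 30, 22 (0.941%) were lower with hyPBase-centrip and 8 (0.342%) higher, against 0.801% and 0.341% of all bins. The biased bins were thus called at about the share of all bins. The median absolute log2 difference was 0.12 both in biased bins and over all bins. No bin was called when lines of the same position and orientation in a library were merged over barcodes, where 2661 of all bins and 73 biased bins had an unadjusted edgeR p below 0.05. DESeq2 called 17 of the 441 biased bins to which it gave an adjusted p, and 438 of 13111 such bins overall.

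The clearest difference was at chr6:43930001-43940000, in LINC01512 on the plus strand and SCIRT on the minus strand, 143513 bp from VEGFA, which encodes an angiogenic growth factor. Its level was 17.7 ± 2.46 CPM (SD, n = 10) in the hyPBase and 10.2 ± 2.57 CPM (SD, n = 10) in the hyPBase-centrip libraries, where CPM are lines scaled to library size with TMM. The log2 difference was -0.79 ± 0.13 (SE, edgeR adjusted p = 1.05e-05). In lines, the hyPBase libraries had 15 to 37 (median 30.5) and the hyPBase-centrip libraries 8 to 26 (median 21). The adjoining bin chr6:43920001-43930000 was lower by 0.30 on the log2 scale as well (log2 difference -0.30, edgeR adjusted p = 0.00163). These neighbours had 77.5% plus and 77.5% minus lines, so a decrease with hyPBase-centrip was seen on both sides of a switch in orientation. The third, chr2:204470001-204480000, was also lower with hyPBase-centrip (log2 difference -0.56, edgeR adjusted p = 0.000881).

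Higher with hyPBase-centrip was chr15:90670001-90680000, in CRTC3-AS1 on the minus strand, 24655 bp from CRTC3, a CREB coactivator gene, and 37345 bp from BLM, a DNA helicase gene. Its level was 11.1 ± 3.02 CPM (SD, n = 10) in the hyPBase and 17.4 ± 3.21 CPM (SD, n = 10) in the hyPBase-centrip libraries (log2 difference 0.66 ± 0.13, SE, edgeR adjusted p = 0.000527). The hyPBase libraries had 11 to 27 lines there and the hyPBase-centrip libraries 21 to 47. The bins chr5:76790001-76800000, between the thrombin receptor gene F2R and F2RL1, and chr20:58550001-58560000, in APCDD1L-DT, were higher by 0.50 and 0.41 on the log2 scale (edgeR adjusted p = 0.00172 and 0.00843). The dominant share of these 6 bins was 72.7% to 81.3% with each helper. They were chosen on the lines of both helpers together, so a majority with each was largely given by the choice.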

How the data were processed

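Lines were insertions mapped in K562 bulk Calling Cards libraries. The authors deposited, per library, the position, orientation, barcode and raw read count of each insertion on hg38 (Trimmomatic, BWA and SAMtools per the submitters' processing notes). Bins, distances and strands were derived from GENCODE v44 with Python 3.11.15 and numpy 2.4.6, and sequences from the hg38 reference. The 2 unassigned libraries entered no test. Lines per bin and lines per orientation were compared between helpers with edgeR 4.0.16 (TMM for lines per bin, quasi-likelihood, Benjamini-Hochberg). Both edgeR fits were tested on simulated data. DESeq2 1.42.0 served as an alternative and was not tested in this way. Single values were compared with exact sign-flip or permutation tests (scipy 1.17.1). The labels tie no library to a dish of its own, so p-values measure the spread between libraries. A line needs a transcript captured with oligo(dT), so orientation shares are of recovered insertions, not of all insertions. Precision is set by the lines per library, and PCR reads are not independent molecules.

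The bins and lists were chosen with earlier results of these data known. Bins named were the 5 longest runs (ties by lines), the 5 with most lines, the 3 with the highest share, the 3 nearest the threshold on both sides, the 5 lncRNA genes with most biased bins, and up to 3 per direction with the smallest adjusted p by helper. Alternatives varied the share, lines, distance, bin size, read minimum, barcodes, normalization, tool and libraries.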

Additional observations from a re-analysis of the deposited data

Results flagged for a closer look

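In the bin chr12:127150001-127160000, the only biased bin called for orientation by helper, 80.9% of 1276 hyPBase lines and 74.1% of 1345 hyPBase-centrip lines were plus. It drew attention because a test of the difference itself passed (edgeR adjusted p = 0.0415), and the call was lost without hyPBase-centrip replicate 3, with the replicate block, at a minimum of 100 lines, with barcodes collapsed and with DESeq2.

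The share of lines with the orientation of the lncRNA gene outside the biased bins differed between the helpers by 0.48 percentage points, with no overlap between the groups (permutation test, two-sided p = 2e-05).

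The 2 libraries with no assigned helper, which took no part in choosing the bins, had 76.9% and 76.6% of their lines in the biased bins in the dominant orientation. No library stood apart from its group in any of 20 sets of 10 library values checked, where chance would mark about 1 set in 20.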

How the results depend on the processing

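The number of biased bins depended on its limits. It was 7013 and 693 at a dominant share of 60% and 80%, 5410 and 668 with at least 100 and 500 lines, 1208 beyond 50 kb from protein-coding genes, 1300 with 20 kb bins, 906 with barcodes collapsed (881 of them among the 2339) and 2116 to 2256 without any 1 library. Runs numbered 5886, 645, 4814, 632, 1087, 1178 and 835 under the first 7 of these. With at least 2 reads per line 1601 bins qualified, and 1311 of them were among the 2339. Only 3 intergenic bins held at least 200 distinct positions and none of them reached 70%, so that alternative says little, and with no minimum, an alternative added after seeing the data, 310 bins did. The share opposite to the lncRNA gene was 64.5% at 60%, 77.7% at 80%, 75.3% with barcodes collapsed and 74.0% where lncRNA genes covered at least 50% of the bin, and above 50% under each alternative run.

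For lines per bin, DESeq2 called 17 of 441 biased bins and 438 of 13111 over all bins. The edgeR fit called 394 of all bins with at least 2 reads per line and 0 with barcodes collapsed. For orientation, edgeR called 0 biased bins without hyPBase-centrip replicate 3, at 100 lines and with barcodes collapsed. DESeq2 called 0 of the 365 biased bins to which it gave an adjusted p. At an unadjusted p below 0.05 the biased bins numbered 177, 191, 72 and 109 in these fits in turn. Over all intergenic bins fitted the numbers were 1311, 2464, 529 and 879. The edgeR fit called 9 of 668 biased bins at 500 lines and 3 of 2339 with at least 2 reads. Over all bins these fits called 16 of 16852 without hyPBase-centrip replicate 3 and 11 of 38317 at 100 lines. The calls were 49 of 4758 at 500 lines and 30 of 16852 with at least 2 reads. They called 0 with barcodes collapsed and 8 of 2804 with DESeq2. The causes were not tested.

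Same-numbered libraries of both helpers did not deviate together (correlations -0.021 to 0.036, and 4 of 20 libraries were closest to their own number). With the replicate block, edgeR called 30 biased and 688 of all bins for lines, and 0 biased bins and 15 of all for orientation. At an unadjusted p below 0.05 in that orientation fit were 192 biased bins and 1350 of all. With this block the lncRNA difference had an exact two-sided sign-flip p of 0.00195.

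Depth was a limit for single bins, with a median of 17 lines per library.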
